A study of Mus musculus with 55 samples.

Results

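Pre-mRNA of genes that regulate G1 and entry into S phase was followed as mouse embryonic stem (ES) cells left mitosis: the D-type cyclins Ccnd1, Ccnd2 and Ccnd3, the E-type cyclins Ccne1 and Ccne2, the cyclin-dependent kinases Cdk2, Cdk4 and Cdk6, the phosphatase Cdc25a and the CDK inhibitor Cdkn1b (p27). These 10 genes were taken by symbol. Of them 9 are listed in both tables, among 9911 genes in CCNA-GFP cells and 10237 genes in CTCF-AID cells, and Ccnd3 is listed in neither. The 8 listed genes other than Cdk6 were all higher than in mitosis by 40 min after release and had their highest means between 40 and 60 min, whereas Cdk6 did not rise by 60 min in any arm.

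All cells derive from the E14Tg2a line of strain 129/Ola, grown in serum and LIF. CCNA-GFP cells carry a cyclin A reporter and contributed 19 libraries. CTCF-AID cells carry CTCF fused to an auxin-inducible degron, so that the auxin IAA removes the CTCF protein, and contributed 36 libraries, 18 without and 18 with 0.5 mM IAA. The mitotic and released cells of all arms had 4 h of RO-3306 at 10 µM, which inhibits CDK1, and then 4 h of nocodazole at 50 ng/ml with shake-off, so the controls carry the same block. Cells were collected 6 times from 20 to 120 min after release, with a further collection at 30 min in CCNA-GFP. Asynchronous cells were not synchronised. IAA was present for the last 2 h in nocodazole and during the release, and in asynchronous cells for 4 h. Each line is 1 reporter or degron line, so differences between lines cannot be told apart from differences between these clones. Mitosis and asynchronous cells have 3 libraries per arm and the times after release have 2, except 50 min in CCNA-GFP, which has 1 and was not tested.

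As background, D-type cyclins bind CDK4 and CDK6 and E-type cyclins bind CDK2, and both kinds of complex phosphorylate the retinoblastoma family, which frees E2F factors to switch on S-phase genes. CDC25A removes the inhibitory phosphate from CDK2, and p27 binds and holds back the cyclin E complexes. ES cells are known for a short G1 phase with high cyclin E and CDK2 activity and little dependence on D-type cyclins.

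Promoter sequence was read from RefSeq (GRCm38.p6) as the 250 bases before the annotated start, which was found for Ccne1, Cdc25a, Cdk2, Cdk4, Cdk6 and Cdkn1b. Ccnd1, Ccnd2 and Ccne2 have no entry. The RefSeq start used for Cdk6 lies inside the Gencode span of that gene, downstream of its first base, so that window is not the region before the outermost start. Sets of letters for 3 kinds of factor were searched on both strands. The E-box CACGTG, bound by MYC- and USF-type factors, was in 6.02% of 32851 windows. The E2F letters, which were TTTCCCGC or else TTTGGCGC or else TTTCGCGC or else TTTGCCGC, were in 1.86%. The CTCF core letters, which were AGAGGGC or else AGATGGC or else AGGGGGC or else AGGTGGC, were in 23.6%. Cdk4 held 4 E-boxes, starting at -172, -118, -98 and -11 from the start, and Cdk6 held 1, at -220. Cdc25a held the E2F letters TTTGGCGC at -67 and Cdk2 held GCGGGAAA, the other strand of TTTCCCGC, at -140. CTCF core letters were present once each in the windows of Cdk4, Cdk6 and Cdkn1b and 2 times in that of Cdc25a. None of the 3 sets was in the window of Ccne1. The stretches with the E-boxes of Cdk4 and Cdk6 are shown because these paralogs differ most in the data, and that of Cdc25a because it holds E2F letters. Capitals mark the E-boxes in the first pair and the E2F letters in the third, all lines run 5′ to 3′ on the plus strand, which is the gene strand of all 3, and bases that lie in an annotated UTR were left out. The Cdk6 line covers only -250 to -162 of its window. Of the rest 57 bases were left out as UTR, and the CTCF core letters of Cdk6, at -22, are not shown.
Cdk4, chr10:127063285-127063533: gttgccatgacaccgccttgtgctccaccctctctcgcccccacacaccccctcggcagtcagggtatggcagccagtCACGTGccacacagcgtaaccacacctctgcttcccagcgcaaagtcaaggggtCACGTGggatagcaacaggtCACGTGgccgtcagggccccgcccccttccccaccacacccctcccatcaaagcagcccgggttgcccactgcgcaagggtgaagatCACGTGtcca
Cdk6, chr5:3343643-3343731: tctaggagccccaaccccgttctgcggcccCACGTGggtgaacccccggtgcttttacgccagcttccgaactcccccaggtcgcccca
Cdc25a, chr9:109875329-109875578: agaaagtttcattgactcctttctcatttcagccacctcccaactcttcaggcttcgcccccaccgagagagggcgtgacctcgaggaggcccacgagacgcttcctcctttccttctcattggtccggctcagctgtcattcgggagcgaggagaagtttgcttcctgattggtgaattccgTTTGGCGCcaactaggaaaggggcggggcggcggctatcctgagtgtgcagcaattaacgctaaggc

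Values are TPM of the pre-mRNA, a relative abundance per unit of length, and depth is unknown. The summed TPM of all listed genes rose with release, from 13747 to 17245 in the mitotic CCNA-GFP libraries to between 30992 and 42576 at 60 min, and from 17777 to 23302 in the mitotic CTCF-AID libraries of both arms to between 37872 and 39173 at 60 min. A rise shared by most genes is therefore part of each value, and fold changes are given beside the median of all genes. In these bulk samples, fewer cells out of mitosis and less pre-mRNA per cell cannot be told apart. Of 6 ES cell markers 5 were listed in both tables, and Sox2 was not. Their summed level lay between 20.5 and 35.8 TPM in mitotic CCNA-GFP cells and between 51.8 and 76.2 TPM at 60 min. Of the 4 feeder or fibroblast markers, none was listed in CCNA-GFP, and Col1a1 and Thy1 were listed in CTCF-AID, where their sum was 0.146 to 0.473 TPM in mitosis and 1.87 to 2.95 TPM at 60 min. No primitive endoderm marker (of 4) was listed. The part of these markers in the results was not tested.

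Release from mitosis was compared first. A gene is called higher or lower here at an adjusted p under 0.05 (limma on log2(TPM + 1), replicate as a block, Benjamini-Hochberg over all listed genes), and log2 differences are on that scale, which understates the change of low genes. At 20 min none of the 9 members was called in any arm, and 0% of all genes were called higher in CCNA-GFP, 0% in CTCF-AID without IAA and 0% with IAA. By unadjusted p under 0.05 there were 2, 3 and 0 members, beside 253 of 9911 genes in CCNA-GFP, 397 of 10237 without IAA and 149 of 10237 with IAA. At 30 min in CCNA-GFP, 1 member, Cdk2, was called higher, where 0.303% of all genes were. At 40 min 8 of 9 members were higher in each arm, beside 49.3% of all genes in CCNA-GFP, 63.3% in CTCF-AID without IAA and 58.7% with IAA. At 50 min the count in CTCF-AID was again 8 in each arm, beside 79.1% of all genes without IAA and 78.2% with it.

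At 60 min the count stayed at 8 of 9 in each arm, where 88.3% of all genes were called higher in CCNA-GFP, 84.8% in CTCF-AID without IAA and 82.2% with IAA, so the count itself is near the background. The size of the change was not: the median of the 9 members was 1.83 in CCNA-GFP beside 0.79 over all genes, 1.51 beside 0.63 without IAA and 1.59 beside 0.63 with IAA. At 90 min 8 members were higher in CCNA-GFP (background 89.1%), 8 in CTCF-AID without IAA (74.8%) and 7 with IAA (73.8%). At 120 min the counts were 9 (90.2%), 5 (69.6%) and 7 (68.2%). The count of 5 became 8 without replicate 1, which was not set beside all genes. In asynchronous cells against mitosis they were 8 (70.4%), 4 (34.3%) and 5 (40.9%).

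**Figure D1:**
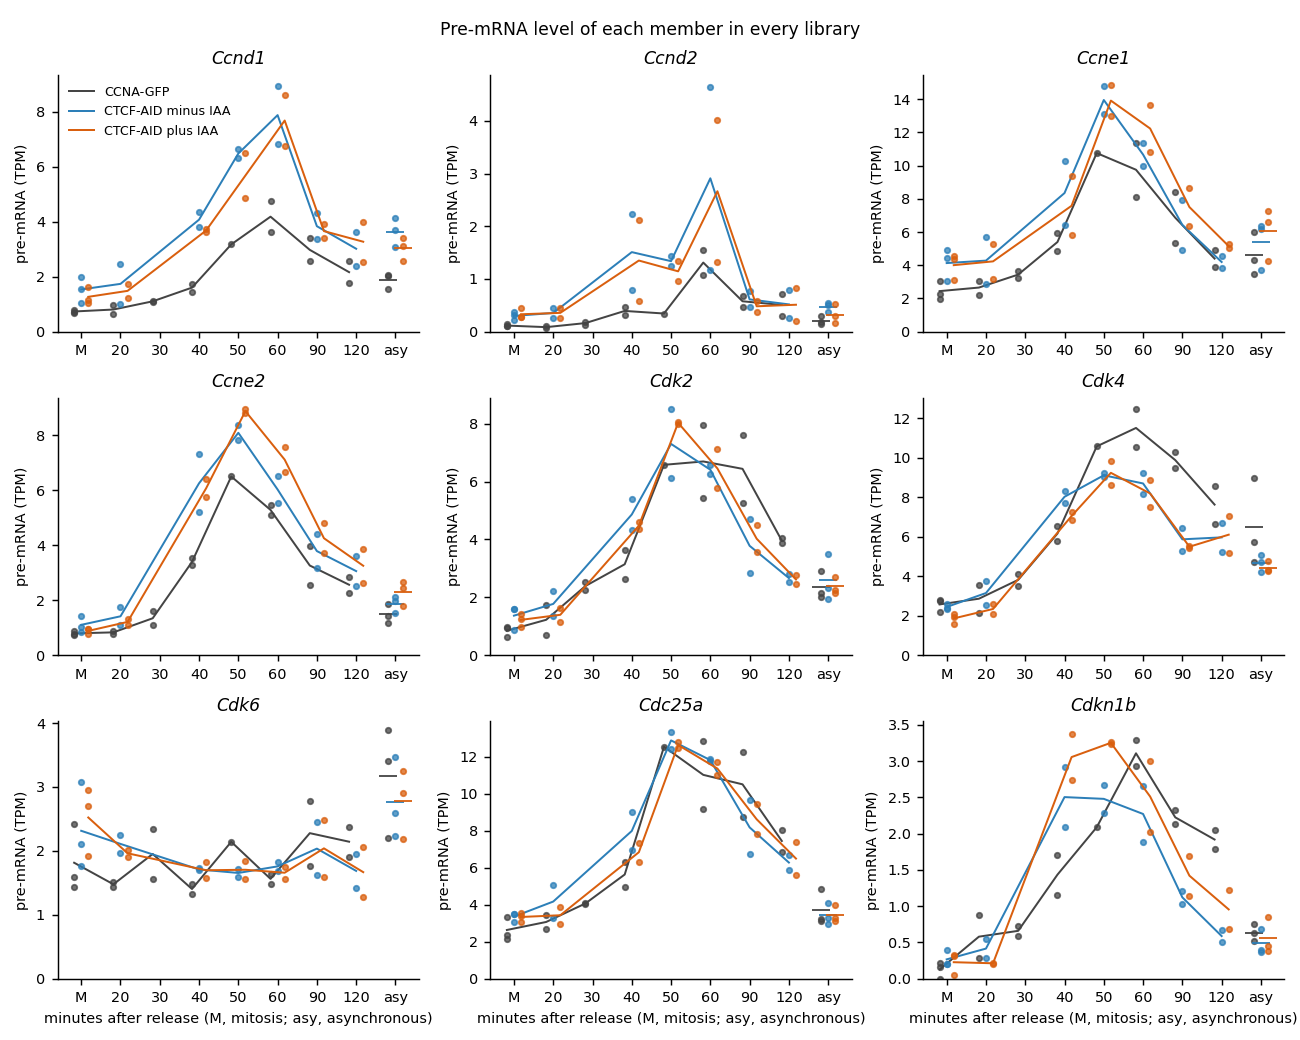
Pre-mRNA level in TPM (y axis) of the 9 listed members at each stage (x axis: M, mitosis; minutes after release, evenly spaced; asy, asynchronous), with a point per library, lines through the stage means and a dash for the asynchronous mean, coloured by arm. Every panel except that of Cdk6 has a peak at 40 to 60 min that falls by 120 min, and that of Cdk6 stays between 1.27 and 3.89 TPM.

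Among the D-type cyclins, Ccnd1 had the higher level. It stood at 0.801, 0.664 and 0.731 TPM in the mitotic CCNA-GFP libraries, at 4.76 and 3.61 TPM at 60 min, at 1.76 and 2.56 TPM at 120 min and at 1.54, 2.07 and 2.01 TPM in asynchronous cells. In CTCF-AID without IAA the values were 2.00, 1.05 and 1.55 TPM in mitosis, 6.81 and 8.94 TPM at 60 min and 3.68, 3.08 and 4.13 TPM in asynchronous cells. The 60 min libraries lay above all mitotic and asynchronous libraries of their arm. The log2 difference from mitosis to 60 min was 1.61 ± 0.14 (SE; adjusted p 1.5e-09) in CCNA-GFP, 1.84 ± 0.20 (1.5e-08) in CTCF-AID without IAA and 1.96 ± 0.20 (4.8e-09) with IAA. In the order of stage means, 60 min came first in all 3 arms, and its range lay apart from that of the next stage, 50 min, which is a single library in CCNA-GFP.

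Ccnd2 was the lowest cyclin, with 0.105, 0.0996 and 0.141 TPM in mitotic CCNA-GFP cells. It reached 1.07 and 1.56 TPM at 60 min and was back at 0.294 and 0.719 TPM at 120 min. Its asynchronous libraries, at 0.174, 0.138 and 0.291 TPM, overlapped the mitotic ones, and this difference of 0.11 ± 0.08 was not called (adjusted p 0.25). The 60 min mean was 6.52 times the asynchronous mean. No other member exceeded 5 times in CCNA-GFP. In CTCF-AID the replicates differed: at 60 min replicate 1 held 1.17 TPM without and 1.32 TPM with IAA, and replicate 2 held 4.65 and 4.01 TPM. Replicate 2 was also the higher at 40 min, with 2.23 and 2.12 TPM against 0.785 and 0.578 TPM in replicate 1. The rise to 60 min was called in each arm, at 1.06 ± 0.09, 1.40 ± 0.21 and 1.33 ± 0.21, and each pair of 60 min libraries lay above its mitotic libraries. With no replicate block, the calls for Ccnd2 at 40 min in CCNA-GFP, at 90 min without IAA and at 40 and 50 min with IAA were lost.

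Both E-type cyclins rose after release, Ccne1 from the higher mitotic level. Ccne1 was at 2.26, 1.99 and 3.06 TPM in mitotic CCNA-GFP cells, at 10.8 TPM in the single 50 min library and at 11.4 and 8.13 TPM at 60 min. Ccne2 was at 0.732, 0.764 and 0.872 TPM in mitosis, at 6.50 TPM at 50 min and at 5.48 and 5.09 TPM at 60 min. In CTCF-AID without IAA, Ccne1 went from 4.92, 3.03 and 4.45 TPM in mitosis to 13.1 and 14.8 TPM at 50 min. Ccne2 went from 1.41, 0.854 and 1.04 TPM to 7.82 and 8.37 TPM. For both genes the 50 min libraries lay above every library at other stages of that arm. With IAA, Ccne2 stood at 8.81 and 8.95 TPM at 50 min, again above all others of its arm.

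Because a ratio within a library does not depend on the scaling of that library, Ccne2 was divided by Ccne1. The ratio was 0.284 to 0.383 in mitotic CCNA-GFP cells, 0.592 and 0.671 at 40 min and 0.482 and 0.626 at 60 min. In CTCF-AID it was 0.233 to 0.288 in mitosis without IAA and 0.710 and 0.812 at 40 min, and 0.207 to 0.246 and 0.684 and 0.989 with IAA. The 40 min libraries lay above the mitotic ones in all arms. In asynchronous cells the ratio was spread, from 0.237 to 0.533 in CCNA-GFP, with replicate 2 the highest in each arm. These ratios were not tested.

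By 120 min the rise of Ccne1 was no longer called in every arm. Its difference from mitosis was 0.15 ± 0.15 in CTCF-AID without IAA, where 4.56 and 3.83 TPM overlapped the mitotic libraries and the call failed (adjusted p 0.39). That of Ccne2 was 0.99 ± 0.16 (1.2e-05), with 2.51 and 3.61 TPM. The difference between both genes at 120 min was not tested. The calls for Ccne1 at 90 min in both CTCF-AID arms were lost without replicate 3, and that at 120 min with IAA was lost without replicate 2 or 3. With every library brought to the same total, its value at 120 min was below 0 in each arm, at -0.11 ± 0.11, -0.33 ± 0.09 (called lower, adjusted p 0.0044) and -0.067 ± 0.09. With no replicate block, the calls at 90 min without IAA and at 120 min and in asynchronous cells with IAA were lost.

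Cdk2, the partner of the E-type cyclins, was the earliest member called. It was at 0.941, 0.631 and 0.956 TPM in mitotic CCNA-GFP cells and at 2.54 and 2.24 TPM at 30 min, so the 30 min libraries lay above the mitotic ones. The difference of 0.77 ± 0.15 had an adjusted p of 0.045. This call was lost without replicate 1 (0.71), without replicate 3 (0.85) and with no replicate block (0.88). By 60 min Cdk2 stood at 7.95 and 5.44 TPM, a log2 difference of 2.14 ± 0.15 (adjusted p 2.4e-10). In CTCF-AID the difference was 1.76 ± 0.14 (5.3e-11) without and 1.85 ± 0.14 (2.0e-11) with IAA. The highest mean in both CTCF-AID arms was at 50 min, with 6.11 and 8.50 TPM without IAA and 8.01 and 8.06 TPM with it.

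Cdk4 and Cdk6, the paralogs that bind D-type cyclins, did not move alike. Cdk4 was at 2.79, 2.16 and 2.76 TPM in mitotic CCNA-GFP cells, at 12.5 and 10.5 TPM at 60 min, at 8.59 and 6.66 TPM at 120 min and at 5.74, 4.70 and 8.95 TPM in asynchronous cells. Its 60 min libraries lay above all of these. In CTCF-AID it went from 2.59, 2.37 and 2.36 TPM to 8.19 and 9.20 TPM without IAA, and from 1.58, 2.08 and 1.91 TPM to 7.51 and 8.86 TPM with IAA. The log2 difference at 60 min was 1.90 ± 0.15 (adjusted p 5.3e-10) in CCNA-GFP, 1.51 ± 0.13 (2.4e-10) without IAA and 1.70 ± 0.13 (3.2e-11) with IAA.

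Cdk6 was at 1.43, 1.59 and 2.42 TPM in mitotic CCNA-GFP cells, at 1.64 and 1.48 TPM at 60 min, at 1.91 and 2.38 TPM at 120 min and at 2.20, 3.41 and 3.89 TPM in asynchronous cells. The ranges of mitosis and 60 min overlapped, and the difference was 0.01 ± 0.11 (adjusted p 0.94). Its first call was at 120 min (0.30 ± 0.11, adjusted p 0.015), and that call was lost without replicate 1, without replicate 2 and with no replicate block. In CTCF-AID without IAA, Cdk6 was at 1.76, 2.10 and 3.08 TPM in mitosis, at 1.59 and 1.72 TPM at 50 min and at 1.69 and 1.83 TPM at 60 min. With IAA it was at 2.70, 1.91 and 2.95 TPM in mitosis, at 1.56 and 1.85 TPM at 50 min and at 1.57 and 1.75 TPM at 60 min. In both arms the libraries at 50 min lay below the mitotic ones.

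Cdk6 was called lower than in mitosis at 50 min without IAA (-0.34 ± 0.12, adjusted p 0.013), where 4.56% of all genes were called lower. With IAA it was called lower at 50 min (-0.41 ± 0.12, adjusted p 0.0034; background 5.37%), at 60 min (-0.30 ± 0.12, adjusted p 0.027; background 4.04%) and at 120 min (-0.31 ± 0.12, adjusted p 0.027; background 4.42%). The calls at 50 min were lost without replicate 3 and with no replicate block. That at 60 min was lost without replicate 1 or 3. That at 120 min was lost without replicate 3 and with no block and turned to 0.01 without replicate 1. In the order of stage means, asynchronous cells came first in all arms. Ranges lay apart at 0 of 8 steps between neighbouring stages in CCNA-GFP, at 0 of 7 in CTCF-AID without IAA and at 1 of 7 with IAA (20 min above 50 min).

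Cdk4 divided by Cdk6 within a library shows the contrast without any scaling. The ratio was 1.14 to 1.95 in mitotic CCNA-GFP cells, 7.63 and 7.10 at 60 min, 4.50 and 2.80 at 120 min and 1.38 to 2.61 in asynchronous cells. Without IAA it was 0.765 to 1.47 in mitosis, 5.67 and 5.36 at 50 min and 1.46 to 2.12 in asynchronous cells. With IAA it was 0.583 to 1.09, 6.31 and 4.67, and 1.47 to 1.95. In each arm the libraries at 40, 50 and 60 min lay above all mitotic and asynchronous libraries.

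**Figure D2:**
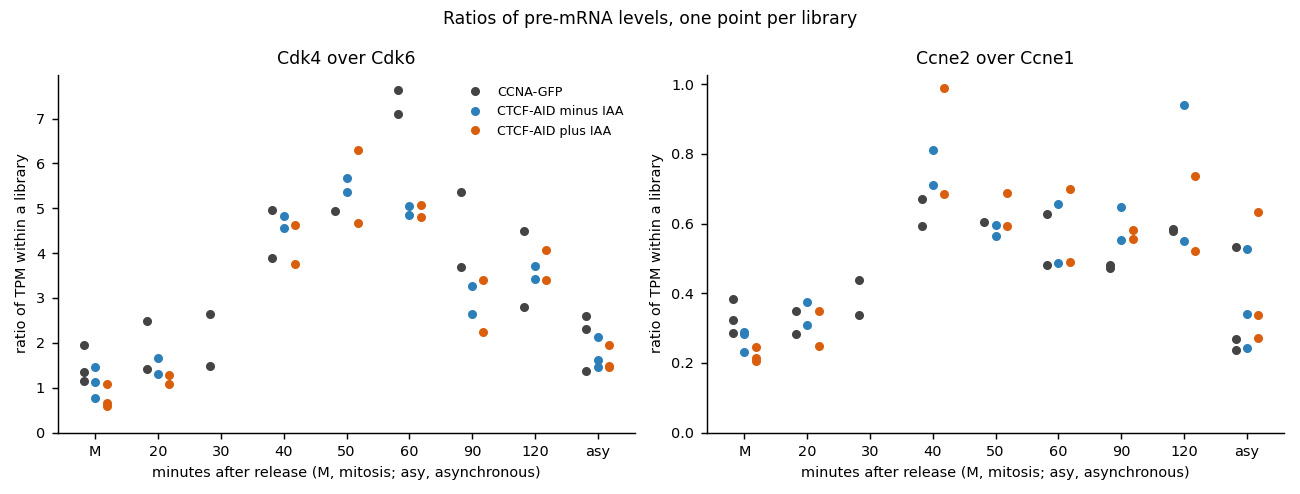
Ratios of pre-mRNA levels within a library (y axis, no unit), Cdk4 over Cdk6 and Ccne2 over Ccne1, by stage (x axis as labelled), with a point per library coloured by arm. Cdk4 over Cdk6 is highest at 50 or 60 min in each arm and reaches 7.63, and Ccne2 over Ccne1 lies above its mitotic values at 40 min in each arm.

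Gene length differs between both kinases. In the Gencode vM21 annotation of GRCm38, Cdk4 spans 4.4 kb (chr10:127063534-127067920, plus strand) and Cdk6 189.5 kb (chr5:3341485-3531008, plus strand). The other listed members span 5.1 kb (Cdkn1b) to 27.0 kb (Ccnd2). Over all genes, the median difference at 60 min in CCNA-GFP was 0.99 for 2476 genes under 10 kb, 0.89 for 3440 genes of 10 to 30 kb, 0.71 for 2911 genes of 30 to 100 kb and 0.26 for 1058 genes over 100 kb. In CTCF-AID genes over 100 kb had a median of 0.22 without and 0.12 with IAA. Cdk6 lay below the lower quartile of genes over 100 kb in each arm, which was 0.07, -0.02 and -0.10. The other 8 members lay above the upper quartile of their length class in each arm, except Ccnd2 in CCNA-GFP (1.06 beside an upper quartile of 1.23). These classes were chosen after the values were seen, and the part of gene length in the results was not tested.

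**Figure D3:**
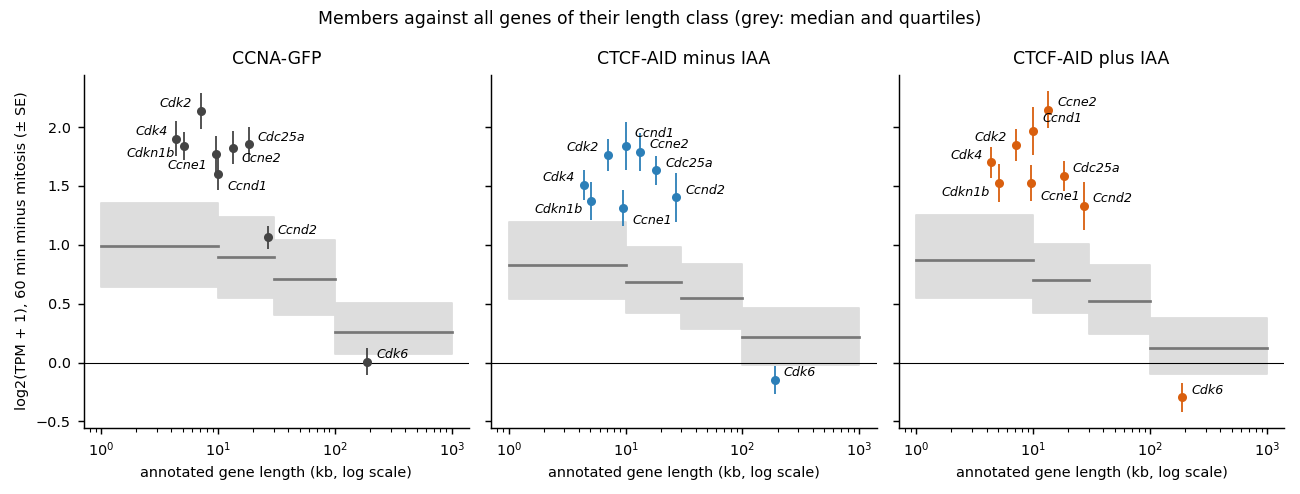
Log2 difference in TPM + 1 from mitosis to 60 min with its SE (y axis) against annotated gene length in kb (x axis, log scale) for the 9 members, a panel per arm, with the median and quartiles of all genes of each length class in grey. Cdk6, the only member over 100 kb, sits below its class in each panel, and the other 8 sit above the median of theirs.

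Cdc25a, the phosphatase that activates CDK2, was at 2.37, 2.16 and 3.35 TPM in mitotic CCNA-GFP cells, at 12.5 TPM in the 50 min library, at 12.9 and 9.16 TPM at 60 min and at 8.72 and 12.3 TPM at 90 min. Its asynchronous libraries, at 3.13, 3.20 and 4.85 TPM, overlapped the mitotic ones. Their difference of 0.38 ± 0.13 was called (adjusted p 0.012), and the call was lost without replicate 3 and with no replicate block. In CTCF-AID it peaked at 50 min, with 12.4 and 13.3 TPM without IAA and 12.5 and 12.8 TPM with it. The 60 min libraries followed, at 11.9 and 11.8 TPM and at 11.7 and 11.0 TPM. In both CTCF-AID arms the ranges at 50 and 60 min lay apart from each other and from all other stages. Asynchronous CTCF-AID cells differed from mitotic ones by 0.02 ± 0.11 (adjusted p 0.89) without and 0.04 ± 0.11 (0.80) with IAA, the smallest differences of Cdc25a at any stage. Its excess at 60 min over asynchronous cells was 1.48 ± 0.14, 1.61 ± 0.13 and 1.55 ± 0.13 on the log2(TPM + 1) scale.

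Cdkn1b, which encodes the inhibitor of cyclin E and CDK2, was close to Ccnd2 in its low mitotic level, at 0.209 and 0.166 TPM and listed at 0 in the third CCNA-GFP library. It was at 1.71 and 1.16 TPM at 40 min, 2.93 and 3.29 TPM at 60 min, 2.05 and 1.78 TPM at 120 min and 0.754, 0.622 and 0.523 TPM in asynchronous cells. Ranges of neighbouring stages lay apart at 6 of 8 steps in its order, which was 60, 90, 50, 120, 40 and 30 min, asynchronous cells, 20 min and mitosis. The steps on either side of 50 min rest on its single library. In CTCF-AID the highest mean was at 40 min without and 50 min with IAA. Without IAA it was at 2.92 and 2.09 TPM at 40 min, 2.28 and 2.68 TPM at 50 min and 1.89 and 2.65 TPM at 60 min, and these 3 stages overlapped. By 120 min it was at 0.502 and 0.671 TPM, and its difference from mitosis was 0.34 ± 0.16 (adjusted p 0.062). The difference from mitosis at 40 min was 1.08 ± 0.12 in CCNA-GFP, 1.47 ± 0.16 without IAA and 1.74 ± 0.16 with IAA. The lines are in separate tables whose scaling no source states, so these levels were not tested between lines.

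Since most genes rose after release, the members were also compared after every library was brought to the same total of listed TPM, which moved the median of all genes at 60 min from 0.79 to 0.02 in CCNA-GFP and from 0.63 to 0.06 in both CTCF-AID arms. The same 8 members stayed higher at 60 min, and Cdk6 was lower in each arm. The background was then 36.4% of genes higher and 33.3% lower in CCNA-GFP, 39.4% and 31.1% without IAA, and 40.7% and 33.2% with IAA. The 8 differences ran from 0.67 ± 0.11 (Ccne1) to 1.30 ± 0.16 (Cdkn1b) in CCNA-GFP. They ran from 0.47 ± 0.09 (Ccne1) to 1.11 ± 0.16 (Ccnd1) without IAA and from 0.67 ± 0.09 (Ccne1) to 1.49 ± 0.13 (Ccne2) with IAA. Cdk6 stood at -0.86 ± 0.08 (adjusted p 4.5e-06), -0.81 ± 0.09 (1.6e-07) and -0.97 ± 0.09 (8.3e-09).

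**Figure D4:**
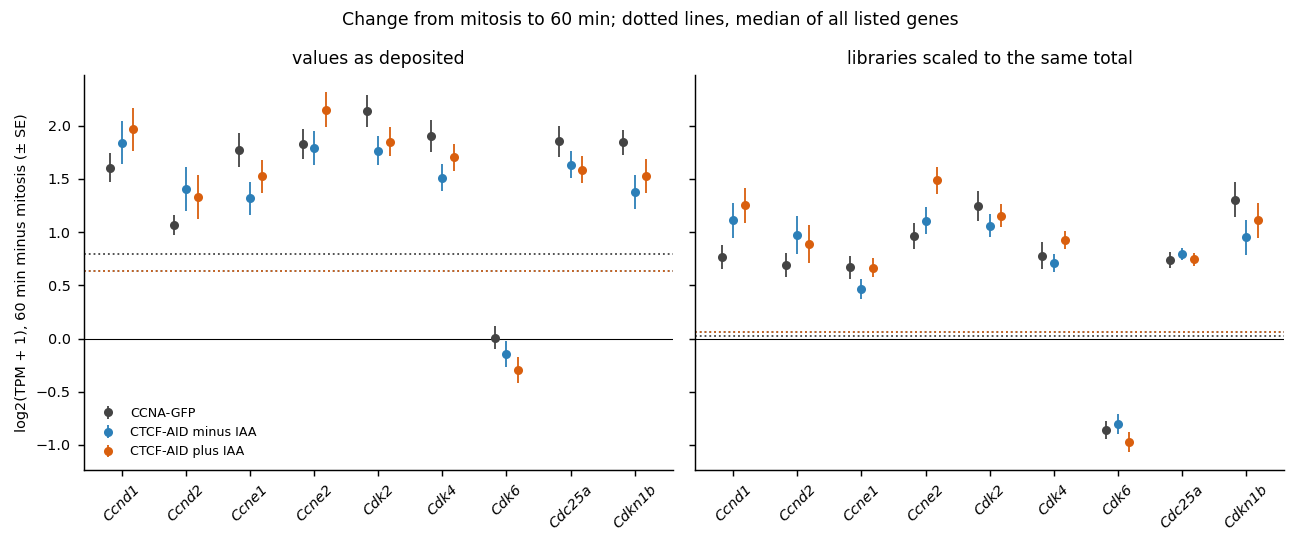
Log2 difference in TPM + 1 from mitosis to 60 min with its SE (y axis) for each member (x axis) in the 3 arms, from the deposited values (left) and with each library scaled to the same total (right). Dotted lines give the median of all listed genes per arm, near 0.79 and 0.63 on the left and near 0 on the right, and Cdk6 alone lies below them in both panels.

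Asynchronous cells were next set against the 60 min peak. At 60 min 8 members were higher than in asynchronous cells and Cdk6 was lower, in each arm. Of all genes 67% were higher and 8.6% lower in CCNA-GFP, 75.2% and 7.06% in CTCF-AID without IAA, and 72.2% and 8.24% with IAA. Cdk6 differed by -0.55 ± 0.11 (adjusted p 0.00015), -0.34 ± 0.12 (0.014) and -0.40 ± 0.12 (0.0044). Its call was lost without replicate 2 in CCNA-GFP and in CTCF-AID without IAA, and in the latter also without replicate 3. With all libraries at the same total, Cdk4 no longer differed beyond the threshold in any arm (0.20 ± 0.13, 0.10 ± 0.09 and 0.12 ± 0.09), and neither did Ccnd1 without IAA (0.30 ± 0.16).

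From 60 to 120 min 8 members fell in each arm and Cdk6 was not called (0.29 ± 0.12, -0.04 ± 0.13 and -0.01 ± 0.13). The background of genes called lower was 28.5% in CCNA-GFP, 53.1% without IAA and 50.8% with IAA. The median of the members fell by 0.62, 1.02 and 0.95 on the log2 scale, and that of all genes fell by 0.11, 0.27 and 0.25. In CTCF-AID without IAA, Ccnd2 fell the most of the 8, by 1.23 (SE 0.22), and Cdk4 the least, by 0.48 (SE 0.14). The count in CCNA-GFP became 4 with no replicate block (Ccnd1, Ccnd2, Ccne1 and Ccne2) and 4 without replicate 1 (Ccnd2, Ccne1, Ccne2 and Cdkn1b). Neither count was set beside that of all genes in the same setting. With every library at the same total, Cdk4 was not called in either CTCF-AID arm (-0.13 ± 0.09 and -0.03 ± 0.09), Cdkn1b was not called in CCNA-GFP (-0.33 ± 0.17), and Cdk6 was higher there (0.37 ± 0.09).

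The stage with the highest mean was 50 min for 3 members, 60 min for 5 and asynchronous cells for 1 in CCNA-GFP, where 50 min is a single library. Without IAA it was 40 min for 1 member (Cdkn1b), 50 min for 5, 60 min for 2 and asynchronous cells for 1. With IAA it was 50 min for 6, 60 min for 2 and asynchronous cells for 1. In CCNA-GFP, replicate 3 has no 60 min library, and in it Ccnd1, Ccnd2, Cdk2 and Cdkn1b were highest at 90 min. Without replicate 1 the highest Cdk2 mean in CCNA-GFP was at 90 min. In both CTCF-AID arms the D-type cyclins peaked at 60 min and the E-type cyclins, Cdk2, Cdk4 and Cdc25a at 50 min. This order rests partly on which replicates were sequenced, since 50 min holds replicates 1 and 3 and 60 min holds replicates 1 and 2 there. In replicate 1, the only one with both times, Ccnd1 was higher at 60 min (6.81 against 6.64 TPM without IAA and 6.76 against 6.50 TPM with it), and Ccne1 and Ccne2 were higher at 50 min in both arms. Ccnd2, by contrast with its means, was higher at 50 min in that replicate in both arms. It was at 1.25 against 1.17 TPM without IAA and at 1.33 against 1.32 TPM with it. Cdk2 was at 6.11 TPM at 50 min and 6.57 TPM at 60 min without IAA and at 8.01 and 7.13 TPM with it.

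Removal of CTCF was the question of the IAA arm. None of the 9 members was called between the arms at any of 8 stages (limma without a block, adjusted p under 0.1 and a log2 difference over 0.2 in size). The background of genes called in either direction was 0% in mitosis and 0% both at 20 and at 40 min. Afterwards it was 0.283% (50 min), 0.225% (60 min), 0.733% (90 min) and 0.586% (120 min), and it was 1.01% in asynchronous cells. The paper, with a test on counts, reports genes that respond to CTCF removal early after mitosis. The test on TPM used here called none at 20 or 40 min, so it cannot tell whether the members responded at those times. The 72 differences of the members ran from -0.30 (Cdk4 at 20 min) to 0.29 with SE from 0.12 to 0.35. With an unadjusted p under 0.05 there was 1, Cdk4 in mitosis, at 1.58, 2.08 and 1.91 TPM with IAA and 2.59, 2.37 and 2.36 TPM without, a difference of -0.27 ± 0.12. Of all 10237 genes, between 23 (mitosis) and 286 (asynchronous cells) had such a p at a stage. With the replicate block there were 0 calls and 2 at an unadjusted p under 0.05, not set beside all genes.

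The largest positive difference was that of Cdkn1b at 50 min (0.29 ± 0.18), with 3.24 and 3.27 TPM with IAA and 2.28 and 2.68 TPM without. At 120 min it was also 0.29 ± 0.18, with 0.691 and 1.22 TPM against 0.502 and 0.671 TPM. In neither case did the libraries overlap. Cdkn1b was higher with IAA in 14 of 18 library pairs of the same stage and replicate, Ccne2 in 13 and Ccne1 in 12, and Ccnd1 and Cdk4 in 4 each. Pairs of the same replicate at different stages are not independent, and these counts were neither tested nor set beside those of all genes. Ccnd2 had the widest error (SE 0.28 to 0.35) in this fit without a block, and its differences within replicates ran from -0.31 to 0.09. For the rise from mitosis to 60 min, no member was called different between the arms (limma, 0 of 9, with 0 at an unadjusted p under 0.05). Of all genes 0% were called, and 79 had an unadjusted p under 0.05. That of Ccne2 differed the most, by 0.36 ± 0.24. Pre-mRNA of Ctcf itself, 5.74 to 6.78 TPM without and 6.10 to 7.18 TPM with IAA in mitosis, is no check of the depletion, which acts on the protein.

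**Figure D5:**
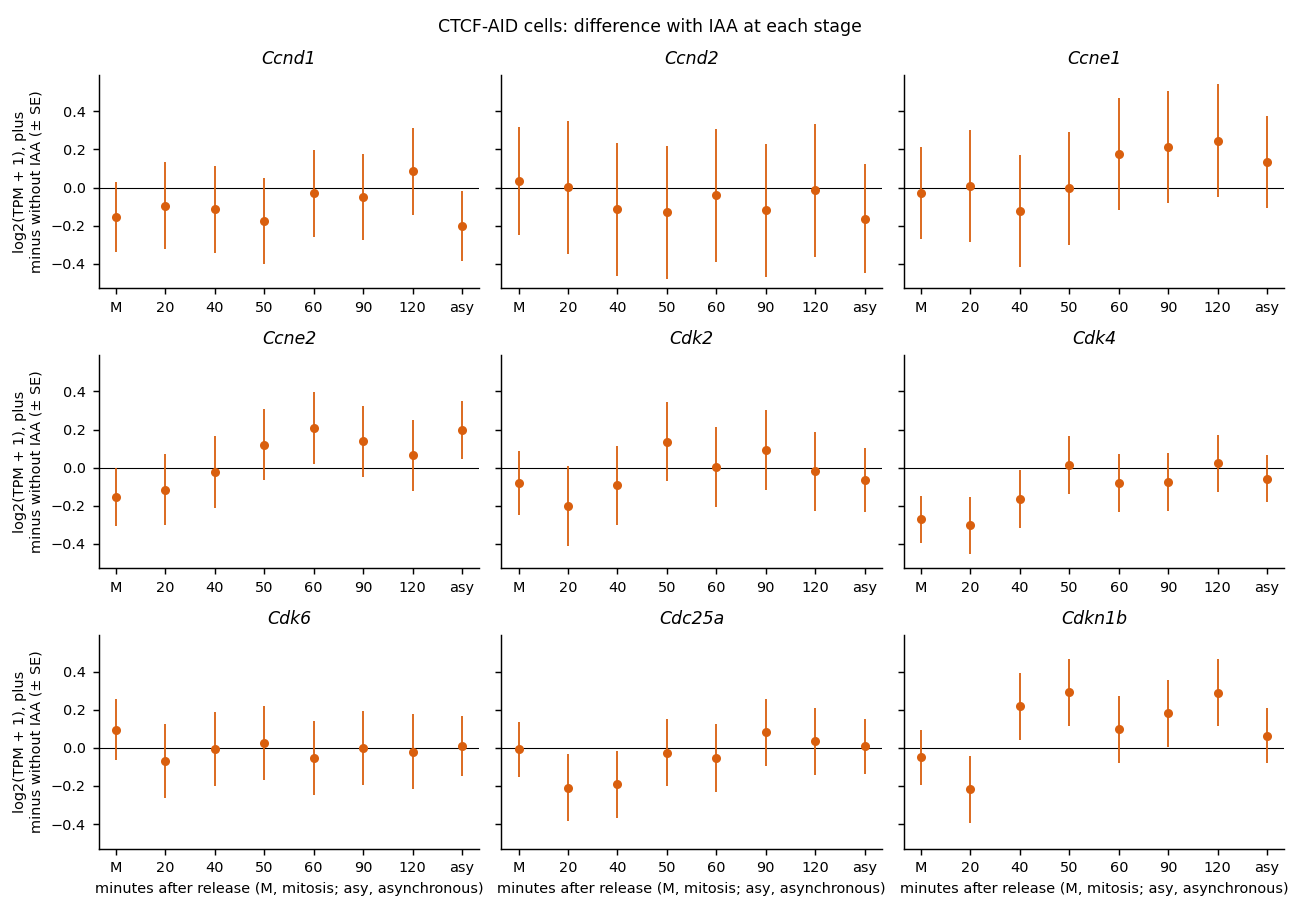
Difference in log2(TPM + 1) between CTCF-AID cells with and without IAA, with its SE (y axis), at each of 8 stages (x axis as labelled) for the 9 members. The points lie between -0.30 and 0.29 and none passed the test.

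Other genes of the pathway were taken from lists of CDK regulators. Of 6 further CDK inhibitors 5 were listed in CCNA-GFP and 3 in CTCF-AID, Cdkn1a in neither, and all listed ones rose by 60 min, with medians of 1.06, 1.07 and 1.28 beside 0.79, 0.63 and 0.63 over all genes. The share of all genes called higher at 60 min, against which this and later counts from the deposited values are to be read, was 88.3%, 84.8% and 82.2%. Cdkn1c (p57) had the largest change, 1.82 ± 0.17, 2.41 ± 0.19 and 2.57 ± 0.19 in the 3 arms, and Cdkn2b (p15) the smallest in CCNA-GFP, 0.49 ± 0.08. At the same library total 4 of 5, 3 of 3 and 3 of 3 remained higher, where 36.4%, 39.4% and 40.7% of all genes were higher. Of 11 retinoblastoma family, E2F and DP genes 10, 10 and 9 rose, near the share of all genes, with medians of 0.62, 0.56 and 0.58, below those of all genes. Rbl2 (p130) had the largest change in CCNA-GFP (0.97 ± 0.11) and Rbl1 (p107) the smallest (-0.05 ± 0.07), and Rbl1 fell in CTCF-AID by 0.26 (SE 0.05) without and by 0.29 (SE 0.05) with IAA. At the same total 0, 3 and 3 of these 11 were higher and 8, 5 and 7 lower, where 36.4%, 39.4% and 40.7% of all genes were higher and 33.3%, 31.1% and 33.2% lower.

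Among 7 kinases, kinase subunits and phosphatases that set the activity of CDKs, 6, 5 and 5 rose, beside the same shares of all genes (medians 1.08, 0.70 and 0.73). Wee1, which inhibits CDK1 and CDK2, was at 1.52 ± 0.14 in CCNA-GFP. Mnat1, a subunit of the CDK-activating kinase, was at -0.05 ± 0.10 there (not called). In the ubiquitin ligase list, which includes the SCF parts that mark p27 and cyclin E for degradation, 6 of 7 rose in each arm, near the share of all genes (medians 1.22, 0.81 and 0.91). Cks1b led in CCNA-GFP with 1.65 ± 0.15. Ambra1, an adaptor for degradation of D-type cyclins, was at -0.11 ± 0.11 there and fell by 0.51 (SE 0.09) and 0.71 (SE 0.09) in CTCF-AID without and with IAA. Of Ccna2, Ccnb1, Ccnb2 and Cdk1, the cyclins and kinase of later phases, 3, 2 and 3 rose by 60 min (medians 0.84, 0.24 and 0.39, the last pair below those of all genes), with Ccna2 first (1.37 ± 0.12) and Ccnb2 last (0.21 ± 0.11, not called) in CCNA-GFP. At 120 min Ccna2 alone of these 4 was still called higher in CCNA-GFP (0.75 ± 0.12), where 90.2% of all genes were. In each CTCF-AID arm 1 of the 4, again Ccna2, was higher at 120 min, beside 69.6% of all genes without and 68.2% with IAA. There 2 of the 4 were lower, beside 322 and 452 of 10237 genes, with Ccnb1 the lowest (-0.86 ± 0.11 without and -0.81 ± 0.11 with IAA).

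The genes most alike in pattern were found by Pearson's r over 25 stage means of the 3 arms, after the median of each library was taken off, among 6604 genes whose mean reached 1 TPM in each table. For Ccnd1 they were Fdps (r 0.94), Usf1 (0.91) and Plag1 (0.90). For Ccne1 they were Kif23 (0.96), Actr6 (0.95) and Faim (0.95), for Cdk2 Nop16 (0.98), Polr2g (0.98) and Ska2 (0.97), and for Cdkn1b Dbp (0.94) and Ciart (0.93). On the same measure Cdk2 and Ccne2 reached 0.91. The stage means share libraries and scaling, so these values are descriptions.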

How the data were processed

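Pre-mRNA was measured by RNA-seq. Per the paper's methods, the authors made ribo-depleted, stranded, paired-end libraries, aligned them to mm10 with STAR, quantified them with RSEM on a Gencode annotation with a pre-mRNA isoform added for each gene, and deposited TPM for genes above a minimum level. The submitters' processing notes name STAR, RSEM and mm10, with versions not given in the sources used here. Within a library the deposited TPM fall on a regular grid (100% of values, within 0.05 of a step), spaced by 0.01 times a factor between 1.84 and 3.81, which no source names. TPM keep no counts, so depth is unknown, and p-values measure only the spread between these samples. The authors' count test (DESeq2) was not used for that reason. The labels do not say that replicates are separate cultures, although the methods call them independent. Headers of the asynchronous CTCF-AID columns are garbled but matched 1 label each.

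From the TPM, log2(TPM + 1) was fitted with limma 3.58.1 in R 4.3.3 (trended eBayes, Benjamini-Hochberg adjustment over all listed genes), with the replicate as a block for times and without it for IAA. Deviations of same-numbered libraries from their stage means correlated above 0.1 in 41 of 41 CCNA-GFP and 182 of 182 CTCF-AID pairs (r from 0.11 to 0.88), so the numbers pair the libraries. At stages with 2 libraries these deviations mirror each other, so the pairs are not independent. Scripts were tested on simulated data. Named genes were all listed members, the extremes of each list at 60 min in CCNA-GFP, and the 3 genes most alike to Ccnd1, Ccne1, Cdk2 and Cdkn1b, of which 1 is not reported here. Members, lists and tests were chosen with earlier results of these data known. Sequences are from RefSeq and gene spans from Gencode vM21, both on the assembly of mm10. Alternatives were a pseudocount of 0.1 TPM, a mean of at least 1 TPM, 3 scalings, the block and each replicate left out.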

Additional observations from a re-analysis of the deposited data

Results flagged for a closer look

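Cdk6 between mitosis and 120 min had opposite signs in CCNA-GFP and in CTCF-AID without IAA. Both CCNA-GFP replicates with a 120 min library were higher at 120 min (1.43 to 1.91 TPM and 1.59 to 2.38 TPM), a mean log2 change of 0.32 within replicates, and both CTCF-AID replicates without IAA were lower (1.76 to 1.41 TPM and 2.10 to 1.96 TPM), a mean change of -0.13. With IAA the replicates went both ways (-0.71 and 0.073). The fitted CTCF-AID change without IAA was not called, and the CCNA-GFP call was lost without replicate 1 or 2. The difference between the lines was not tested, since they are in separate tables whose scaling no source states. With all libraries at the same total, Cdk6 was lower in both, by -0.49 ± 0.08 and -0.61 ± 0.09 in the fits.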

How the results depend on the processing

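Of 321 recomputed counts of members called, 307 stayed within 1.5 times the reported count. At 30 min in CCNA-GFP the 1 member called became 2 with a pseudocount of 0.1 TPM, with a mean of at least 1 TPM and with each library divided by its rounding factor. In the same settings all genes called higher went from 30 of 9911 to 246 of 9911, 187 of 6808 and 360 of 9911. The 1 member became 0 with no replicate block and 0 with libraries at the same median, and ran from 0 to 2 when a replicate was left out. At 20 min the count of members ran from 0 to 1, not set beside all genes. At the same library total the members higher in CCNA-GFP numbered 5 at 120 min and 4 in asynchronous cells, beside 2849 and 2457 of all 9911 genes. With each library divided by its rounding factor, 4174 of 9911 genes were higher at 60 min than in asynchronous CCNA-GFP cells and 1521 lower. From the deposited values these were 6642 and 852. From 60 to 120 min in CCNA-GFP the 8 members called lower became 4 with no replicate block and ran from 4 to 8 with a replicate left out, and the members higher at 120 min in CTCF-AID without IAA ran from 4 to 8. Counts with no block or with a replicate left out were not set beside those of all genes. At the same total, values that turned in sign were those of Ccne1 at 120 min (-0.11 in CCNA-GFP, -0.33 without and -0.067 with IAA) and at 90 min without IAA (-0.16), of Cdk6 in CCNA-GFP at 60, 90 and 120 min (-0.86, -0.63 and -0.49), and of Cdc25a in asynchronous cells (-0.080, -0.13 and -0.15), as the construction of that scale lowers the median of all genes. Cdk6 at 120 min with IAA ran from -0.59 without replicate 2 to 0.012 without replicate 1, and the cause was not tested. Of 2618 single-gene alternatives, 2482 kept direction and side of the threshold or moved by less than the spread, 70 lost a call, 33 gained 1, 11 turned and 22 moved, the last all at 50 min in CCNA-GFP. The replicate block changed no call of an IAA difference. TPM give no counting error, so low levels such as those of Ccnd2 and Cdkn1b in mitosis carry an unknown one.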
